A study of Mus musculus with 18 samples.

Results

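The genes described here are 7 regulators and markers of blood stem cells: Hlf, Mecom, Meis1, Mllt3, Erg, Gfi1b and Procr. They were taken by name, and all 7 were among the 20275 genes of the deposited mRNA count matrix. Their counts were read in every cluster of hematopoietic cells (20982 of 56201 cells) in each hematopoietic progenitor (HP) library. HPs were sorted from the bone marrow (BM) of C57B6/J mice as Lineage-Kit+ cells at embryonic day 16.5 (E16.5), E18.5, postnatal day 0 (P0) and in the adult, with no genetic change or treatment in any group. E16.5 had 2 libraries and each other stage 1, every library came from pooled animals, and nothing in the labels says that the E16.5 libraries came from separate pools, so their spread may be technical. These 2 libraries differed in cell makeup, as given below. Antibodies with oligo tags were counted in the same cells (CITE-Seq).

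HLF, MECOM, MEIS1, ERG and GFI1B bind DNA, and MLLT3 is a reader of acetylated and crotonylated histones in complexes that promote transcription elongation. Procr encodes EPCR (CD201), the endothelial protein C receptor, a surface protein used to enrich mouse long-term hematopoietic stem cells (LT-HSCs). HLF and MECOM are known for limiting cell cycle entry of stem cells, MEIS1 is a partner of HOX and PBX proteins, ERG is an ETS factor needed for stem cell maintenance and also active in endothelium and early B cells, and GFI1B is a repressor required in red cell and platelet precursors.

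Of the 7 genes, Hlf and Gfi1b are shown by the 250 bases before their RefSeq transcription start, read 5′ to 3′ along the gene's strand (RefSeq, GRCm38.p6). They were chosen because Hlf differed between E16.5 and later stages below and Gfi1b was highest in erythroid codes, and because no annotated exon lies in these windows. Capitals mark a match to the ETS core word, and a sequence with no capitals held none of the words searched. The first window lies at chr11:90390918-90391167, minus strand, next to Hlf, and the second at chr2:28621983-28622232, minus strand, next to Gfi1b.
Hlf: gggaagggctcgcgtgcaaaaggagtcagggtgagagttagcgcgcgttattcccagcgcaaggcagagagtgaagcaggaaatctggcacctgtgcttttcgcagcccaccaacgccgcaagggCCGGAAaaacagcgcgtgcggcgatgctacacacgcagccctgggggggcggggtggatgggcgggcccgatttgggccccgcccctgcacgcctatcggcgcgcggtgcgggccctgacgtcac
Gfi1b: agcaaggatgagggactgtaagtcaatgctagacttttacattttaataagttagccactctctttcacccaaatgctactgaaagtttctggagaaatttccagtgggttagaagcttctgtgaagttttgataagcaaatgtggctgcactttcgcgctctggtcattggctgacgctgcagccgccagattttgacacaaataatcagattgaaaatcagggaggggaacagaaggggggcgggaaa
Words for 5 factor families were searched on both strands of these and 32851 mouse windows of this kind. TTACGTAA, a word of the PAR bZIP family that includes HLF, stands in 0.113% of all windows. The MEIS word TGACAG stands in 15.9%. The ETS word CCGGAA was found in 12.0% of them. The GATA word AGATAA was found in 9.99%. The GFI1B word AATCAC was found in 9.14%. The Hlf window held CCGGAA at 125 bases before the start. Mecom has 2 RefSeq starts, the second of which had CTGTCA, the MEIS word on the opposite strand, at 86 bases before it. The second of 2 starts of Mllt3 had the same word at 50 bases, and Meis1 had TTCCGG, the ETS word on the opposite strand, at 11 bases. The third start of Erg had the MEIS word on each strand and a GATA word. The Procr window and the first starts of Mecom and Mllt3 held no match. G and C made up 67.2% of the Hlf window and 44.4% of the Gfi1b window, against a median of 52.4% over all windows. Reads from the 3′ end of transcripts do not show which start was used. On the same build, Hlf spans chromosome 11 from 90336535 to 90390917 and Mecom chromosome 3 from 29951296 to 30509759. Within Mecom lie 5 annotated genes on its strand and 2 on the other, and within Meis1 3 and 2, so the counts of Mecom and Meis1 are uncertain to the extent that reads were shared, while the other 5 overlap no annotated gene.

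E16.5 was covered by 560 and 4752 cells, E18.5 by 3477, P0 by 6208 and the adult by 5985, and libraries ranged from 13974733 to 127489333 UMIs. The median per cell ran from 6747 UMIs in the adult to 23291.5 in E16.5 library 1, and 27.5% of E18.5 cells and 17.0% of adult cells held fewer than 1000 UMIs. Libraries shared cell barcodes: 330 of those in E16.5 library 1 (58.9%) were also in the adult library, 153 (27.3%) in P0 and 46 (8.21%) in E18.5, and 375 E18.5 barcodes (10.8%) were in the adult. The doubtful copies, those with fewer UMIs than the same barcode elsewhere, were few in the stem cell clusters (7 of 629 adult HSPC5 cells), and the levels in HSPC codes and the edgeR fits other than the interactions were also computed without them. Over the whole adult library they were 694 of 5985 cells (11.6%). Of the 134 adult cells in the LT-HSC antibody gate used below, 120 remained without them. Levels are given as CPM, the count of a gene scaled to 1000000 of the summed UMIs of a group of cells, with exact Poisson 95% intervals in brackets that cover counting error only.

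Clusters keep the code of the authors' annotation. Those coded HSPC (hematopoietic stem and progenitor cells) made up 5.89% of cells in E16.5 library 1, 3.47% in E16.5 library 2, 11.2% of the E18.5 library, 24.2% of the P0 library and 10.5% of the adult one. The code was checked against 14 HSPC markers, whose summed level was 1356 CPM in HSPC1 of E16.5 library 2, 2702 in HSPC2 at E18.5, 3633, 2749 and 1499 in HSPC2, HSPC3 and HSPC4 at P0, and 1909 in adult HSPC5. The leading genes of HSPC1 included Cd209a, Flt3 and no HSPC marker, those of E18.5 HSPC2 also held no HSPC marker, and those of HSPC4 held 4 myeloid progenitor markers, so clusters are compared by code and not as 1 cell type. The T and NK markers, all 9 of them detected, summed to 1790 CPM in HSPC1 against 132 to 280 CPM in the other 5 clusters, and the mast cell markers to 4660 CPM against 34.1 to 469. Their part in the low levels of HSPC1 below was not tested. Mecom, Procr and Erg are also known from endothelium, whose 7 markers summed to 33.4 to 67.0 CPM over these clusters.

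Hlf, Mecom and Procr had their highest level in a cluster coded HSPC, and the other 4 genes did not. The comparison spans 66 clusters of single libraries with at least 50 cells and a median of at least 1000 UMIs. These levels describe clusters made from the same counts and carry no test.

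Hlf was at 157 CPM [149 to 165] in HSPC2 at E18.5 and at 151 [144 to 159] in HSPC2 at P0, whose intervals overlap. Adult HSPC5 followed with 115 CPM [106 to 124] and P0 HSPC3 with 113 [108 to 119], which also overlap. HSPC4 had 39.4 CPM and HSPC1 of E16.5 library 2 had 21.2 [16.5 to 26.9]. The 33 HSPC1 cells of E16.5 library 1 gave 19.2 CPM [11.0 to 31.1], inside the range of library 2. Hlf was thus low in HSPC1 of both E16.5 libraries and in HSPC4. Its 60 other clusters had a median of 3.67 CPM against 114 over the 6 coded HSPC. The highest of the 60 reached 78.3 CPM, above HSPC4 and HSPC1, and 16 of them were above 10 CPM. At E16.5 the highest cluster was TCell5, led by Xcl1, Klrc1 and Il2rb, with 70.0 CPM [60.4 to 80.8] in library 2. The 13 TCell5 cells of library 1 had 68.7 CPM [41.4 to 107]. TCell5 held 56.8% of the Hlf UMIs of E16.5 library 2 with 3.91% of its cells, and 38.8% of those of library 1. The same code had 20 CPM at E18.5 and 35 at P0.

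Mecom, the zinc finger factor of the MDS1 and EVI1 complex locus, was at 35.1 CPM [31.6 to 38.9] in P0 HSPC2 and at 34.9 [31.4 to 38.8] in E18.5 HSPC2. Adult HSPC5 had 27.7 [23.5 to 32.5] and P0 HSPC3 27.3 [24.8 to 30]. HSPC4 had 9.16 CPM and HSPC1 of E16.5 library 2 only 1.87 [0.687 to 4.08], from 6 UMIs in 165 cells. No Mecom UMI was found in the 33 HSPC1 cells of E16.5 library 1, which allows up to 4.42 CPM. TCell5 had 2.23 CPM [0.820 to 4.86] in library 2, also from 6 UMIs, and its 13 cells in library 1 held 5 of the 8 Mecom UMIs of that library (18.1 CPM [5.87 to 42.2]). The 4 highest coded clusters stood apart from HSPC4 and HSPC1 with no overlap of intervals. Outside the HSPC code, P0 Mono2 (16.3 CPM) and E18.5 MyP1 (13.5 CPM) were the only ones of the 66 clusters above 10 CPM, and 21 of the 66 clusters had no Mecom UMI.

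Procr was sparse. It reached 13.9 CPM [11.8 to 16.4] in P0 HSPC2 and 13.3 [11.1 to 15.7] in E18.5 HSPC2, then 7.91 [6.59 to 9.42] in P0 HSPC3. Adult HSPC5 had 3.67 CPM [2.24 to 5.67] and HSPC4 3.58 [2.12 to 5.66]. HSPC1 of E16.5 library 2 had 1.25 CPM, from 4 UMIs. Unlike Hlf and Mecom, Procr in adult HSPC5 lay below every interval of HSPC2 and HSPC3 around birth. Among other clusters the highest were P0 Eos/Bas3 (8.84 CPM [3.25 to 19.2], from 6 UMIs), P0 Mast3 (8.42 [5.79 to 11.8]) and Mast1 of E16.5 library 1 (6.55 [3.74 to 10.6]). Of the 25 Procr UMIs of E16.5 library 1, 64% lay in Mast1. These 16 UMIs came from 3 of its 106 cells, and the other cells of that cluster held none.

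Meis1 was highest in adult MegP2, a megakaryocyte progenitor code, with 105 CPM [95.3 to 116]. The HSPC-coded levels were 85.4 CPM in P0 HSPC2, 84.6 in E18.5 HSPC2 and 83.9 in adult HSPC5, which do not differ beyond their intervals. HSPC3 had 60.9 CPM, HSPC4 38.8 and HSPC1 of E16.5 library 2 30.3 [24.5 to 36.9]. The 33 HSPC1 cells of E16.5 library 1 had 51.5 CPM [37.3 to 69.4], above library 2. Meis1 was also present in mast cell codes, with 35.2 CPM in Mast1 of E16.5 library 2 and 52.1 in E18.5 Mast3. Mast1 held 24.1% and 23.3% of the Meis1 UMIs of the E16.5 libraries. Of the UMIs of all genes it held 2442909 of 13974733 in library 1 and 12965855 of 95833532 in library 2. Mllt3 was highest in adult EryP2, an erythroid progenitor code, with 74.9 CPM [70.3 to 79.8], followed by TCell5 at E18.5 (53.6 CPM) and in E16.5 library 2 (50.6 CPM). In the HSPC codes Mllt3 ran from 11.3 CPM in HSPC4 to 31.0 in P0 HSPC2, against a median of 15.3 over the other clusters.

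Erg was highest in B cell codes. P0 BCell2 had 124 CPM [83.4 to 177], adult Pre/Pro-B2 93.4 [69.9 to 122], P0 Bcell1 55.6 and E18.5 Bcell1 43.2. Its HSPC-coded levels were 21.7 to 25.3 CPM in E18.5 HSPC2, P0 HSPC2 and HSPC3 and adult HSPC5, with overlapping intervals, 12.5 in HSPC4 and 3.74 [1.93 to 6.54] in HSPC1. Gfi1b followed the erythroid and megakaryocyte codes: 55.9 CPM [51.8 to 60.1] in adult EryP2, 51.9 [48.6 to 55.4] in P0 EryP1 and 51.0 [46.4 to 55.9] in E18.5 EryP/MegP, with overlapping intervals, and 31.7 and 31.5 CPM in P0 MegP1 and adult MegP2. In the HSPC codes it was between 3.02 CPM (HSPC3) and 10.9 (HSPC1 of E16.5 library 2). That level in HSPC1 overlapped E18.5 HSPC2 at 10.3 CPM and P0 HSPC2 at 10.2 CPM, while the 33 HSPC1 cells of E16.5 library 1 held 1 Gfi1b UMI.

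**Figure D1:**
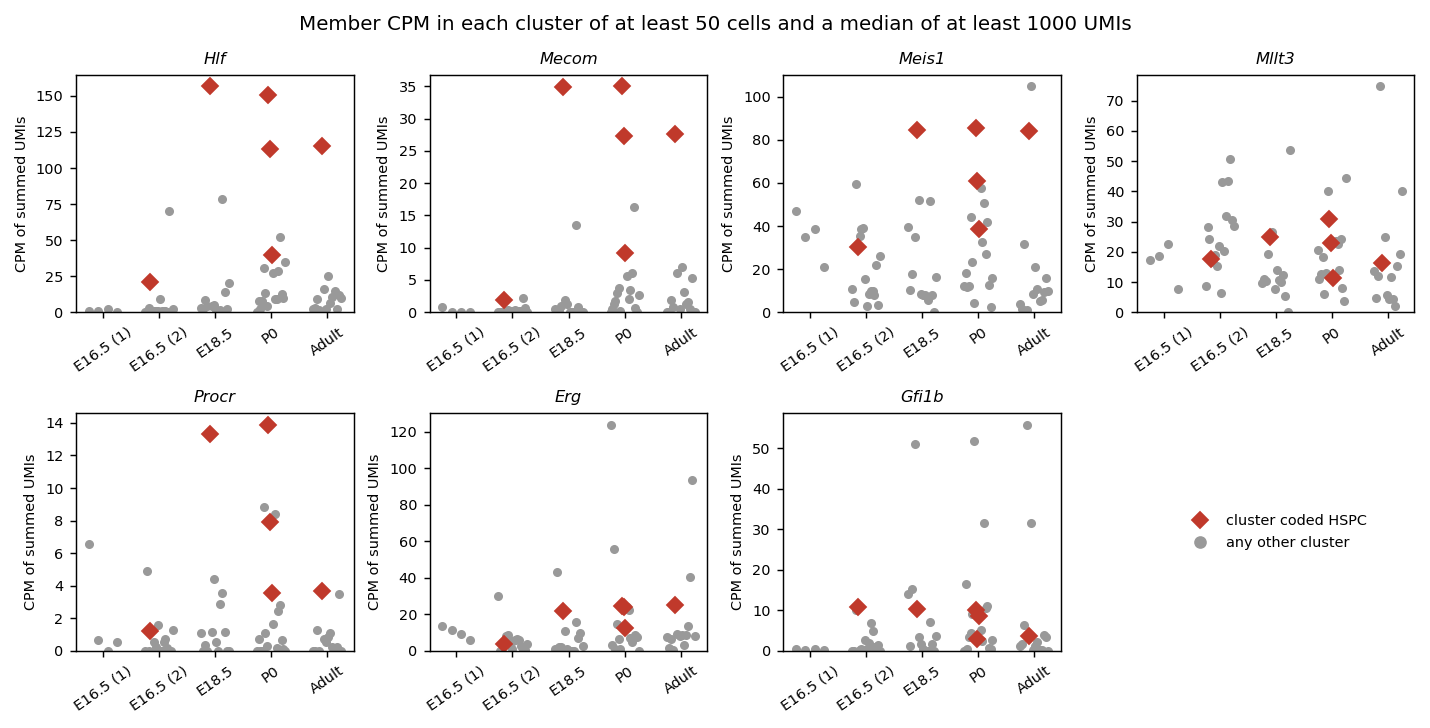
Level of each gene (vertical axis, CPM of summed UMIs, linear and starting at 0) in each cluster of at least 50 cells and a median of at least 1000 UMIs, by HP library (horizontal axis). Red diamonds are clusters coded HSPC and grey circles all other clusters; over all libraries the highest point is an HSPC code for Hlf, Mecom and Procr, which does not hold within E16.5 library 2 (for Hlf, TCell5 at 70.0 CPM against HSPC1 at 21.2), while the highest points are adult MegP2 for Meis1 (105 CPM), P0 BCell2 for Erg (124 CPM) and adult EryP2 for Mllt3 (74.9 CPM) and Gfi1b (55.9 CPM).

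**Figure D2:**
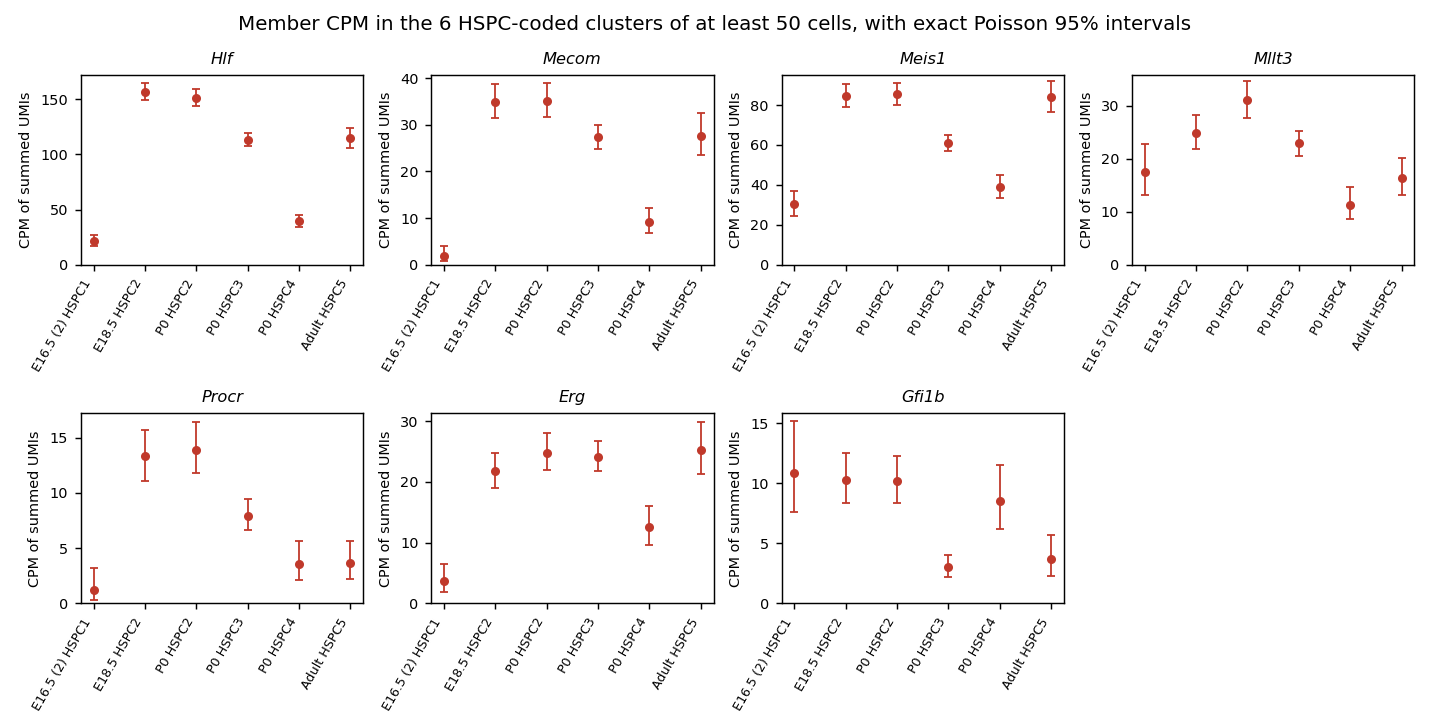
Level of each gene (vertical axis, CPM) in the 6 HSPC-coded clusters of at least 50 cells (horizontal axis), with exact Poisson 95% intervals as bars. HSPC1 of E16.5 library 2 is lowest for Hlf (21.2 CPM), Mecom (1.87 CPM), Meis1 (30.3 CPM), Procr (1.25 CPM) and Erg (3.74 CPM), but not for Mllt3 and Gfi1b.

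In the later libraries Hlf, Mecom and Procr were concentrated in few clusters. HSPC2 at E18.5, with 11.2% of cells and 15.5% of all UMIs, held 57.3% of the Hlf, 64.8% of the Mecom and 63.3% of the Procr UMIs. MyP1, with 7.51% of cells and 16.9% of all UMIs, held a further 31.2%, 27.4% and 18.6%. At P0, HSPC2 and HSPC3, with 8.16% and 12.5% of all UMIs, held 33.6% and 38.6% of Hlf, 35.3% and 41.9% of Mecom and 38.0% and 33.0% of Procr UMIs. Adult HSPC5, with 9.20% of all UMIs, held 55.1% of Hlf, 55.9% of Mecom and 50% of the 40 Procr UMIs. Meis1 and Erg were spread more widely, with 36.2% and 30.7% of their UMIs in E18.5 HSPC2 and 35.2% and 20.1% in adult HSPC5. Of the adult Gfi1b and Mllt3 UMIs, 78.1% and 67.9% lay in EryP2, which had 7.92% of cells and 21.8% of all UMIs.

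The genes with the most similar pattern were found by the Pearson correlation of log2(CPM + 10) over 73 clusters of single libraries, among 11206 genes. The clusters share libraries and depth, so this is a description. Hlf was most like Mecom (0.86), then the endothelial and stem cell genes Adgrl4 (0.80) and Myct1 (0.79). Mecom was most like Hlf, then Ddx4 and Myct1 (0.83 each). Procr was most like Mecom (0.69) and Ddx4 (0.68). Within the 7 genes, Hlf correlated with Procr at 0.57, Meis1 at 0.50, Erg and Gfi1b at 0.17 and Mllt3 at 0.06. None of the other 4 had a member among its 3 most similar genes. These were for Meis1 Arhgap6 (0.76), Ctla2a (0.75) and Slc22a3 (0.73), for Mllt3 Prelid2 (0.77), Ldb1 and Ssbp3 (0.65 each), for Erg Robo3, Tmem91 (0.83 each) and Mmrn1 (0.82), and for Gfi1b Tspo2 (0.86), Samd14 (0.85) and Kcng2 (0.83).

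Single cells were compared after thinning each to 1000 UMIs, since depth sets how many genes a cell shows. A UMI of at least 2 of the 7 genes was found in 6.19% of E18.5 HSPC2 cells, 5.78% of P0 HSPC2, 4.71% of P0 HSPC3 and 5.28% of adult HSPC5 cells, with binomial (Clopper-Pearson) intervals that overlap. It was found in none of the 165 HSPC1 cells of E16.5 library 2 (upper limit 2.21%) and none of the 112 HSPC4 cells (upper limit 3.24%). Over whole libraries the share was 0.184% and 0.0845% in the E16.5 libraries and higher in the others, 1.35% (E18.5), 1.53% (P0) and 0.966% (adult). Without thinning, 11.5% of HSPC1 and 55.2% of E18.5 HSPC2 cells held 3 or more of the genes, and 50.9% of HSPC4 cells did, at a median depth of 46141 UMIs. After thinning to 1000 UMIs, cells with a Mecom UMI held an Hlf UMI in 7 of 18 cells (38.9%) of E18.5 HSPC2 against 15.7% of the rest, 10 of 30 (33.3%) against 13.7% in P0 HSPC2, 7 of 28 (25.0%) against 10.8% in P0 HSPC3 and 6 of 22 (27.3%) against 11.9% in adult HSPC5. The share was higher with Mecom in all 4 clusters, but cells of 1 library are not replicates and no test was made.

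To ask whether the genes rose with stage without relying on clusters, the UMIs of all HP cells of a library were summed, and the 3 later libraries were compared with both E16.5 libraries. Each later stage had a single library, so differences among these stages count as spread in this fit. The SE and p thus do not measure replicate spread within a later stage. Hlf rose from 3.51 and 3.45 CPM in the E16.5 libraries to 42.4 CPM in E18.5, 36.7 in P0 and 19.2 in adult HPs. Mecom rose from 0.572 and 0.303 CPM to 8.33, 8.12 and 4.56 CPM. In both genes every later library was above both E16.5 libraries. The fitted differences were 3.17 ± 0.35 (SE) on the log2 scale for Hlf (9.01-fold, adjusted p = 0.0312, edgeR quasi-likelihood test) and 4.05 ± 0.49 for Mecom (16.5-fold, adjusted p = 0.0337). These were 2 of the 7 genes, both higher, where 1.39% of the 15093 genes tested were called in either direction and 0.358% as higher. The median log2 difference was 0.94 over the 7 genes and -0.02 over all genes tested.

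Gfi1b did not pass in edgeR. It was at 1.07 and 2.55 CPM at E16.5 and at 12.7, 15.3 and 15.6 CPM later, again with no overlap of groups, for a log2 difference of 2.91 ± 0.47 (adjusted p = 0.0509). Neither E16.5 library had a cluster with an erythroid or megakaryocyte code, the codes where Gfi1b was highest later. The part of this makeup in the difference was not tested. Gfi1b was called with no filter on low counts (2.96, adjusted p = 0.0390) and by DESeq2 (2.92, adjusted p = 1.6e-08). In edgeR it was not called with RLE size factors (adjusted p = 0.0515) or without shared barcodes (0.0576). Leaving out 1 library gave differences of 2.50 to 3.79. The remaining genes overlapped between the groups or stood close. Procr was at 1.79 and 0.605 CPM in the E16.5 libraries, 3.24 in E18.5, 3.00 in P0 and 0.676 in adult HPs, so that only the perinatal libraries stood above E16.5 (log2 difference 0.94, adjusted p = 0.541). Its difference was 1.85 without E16.5 library 1 and 0.34 without library 2. Meis1 was at 34.2 and 20.4 CPM at E16.5 and at 36.1, 33.1 and 21.9 CPM later (0.12, adjusted p = 0.841). Mllt3 was at 16.1 and 25.9 CPM and at 15.0, 19.7 and 24.1 CPM (-0.12, adjusted p = 0.883), and Erg at 11.0 and 6.15 CPM and at 10.9, 13.3 and 11.6 CPM (0.47, adjusted p = 0.445).

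In such sums, more cells of a type and more RNA of a gene per cell cannot be told apart, and the share of HSPC-coded cells given above moved in the same direction. The 2 E16.5 libraries differed from each other: Mono/Mast held 161 of 560 and 142 of 4752 cells, and TCell2 held 1 and 486 cells. T cell and mast cell codes were many at E16.5: without them 283 of 560 and 807 of 4752 cells remained, against 3209 of 3477, 5606 of 6208 and 5555 of 5985 later. Without these clusters the log2 difference was 2.94 for Hlf (adjusted p = 0.0622) and 4.43 for Mecom (adjusted p = 0.0480). Hlf lost its call without either E16.5 library (adjusted p = 0.0773 and 0.115) or without P0 (0.186), and Mecom without either E16.5 library (0.0599 and 0.115), without E18.5 (0.0655) or without P0 (0.191). Over all alternatives the difference stayed between 2.94 and 3.43 for Hlf and between 3.61 and 4.48 for Mecom. Without shared barcodes it was 3.17 and 4.14 (adjusted p = 0.0406 for both).

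Of 31 other stem cell regulators tested from a list of 32, 4 rose and none fell: Hoxa9 (log2 difference 3.25, adjusted p = 0.0327), Hoxa7 (2.43, 0.0361), the homeobox gene Nkx2-3 (5.50, 0.0478) and Hoxa10 (4.57, 0.0496). The list's median was 0.49, and 0.358% of all genes tested were called as higher. Without E16.5 library 2 no gene of any kind was called in this comparison, and without P0 2 genes were, so none of these 4 calls holds under every leave-out.

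**Figure D3:**
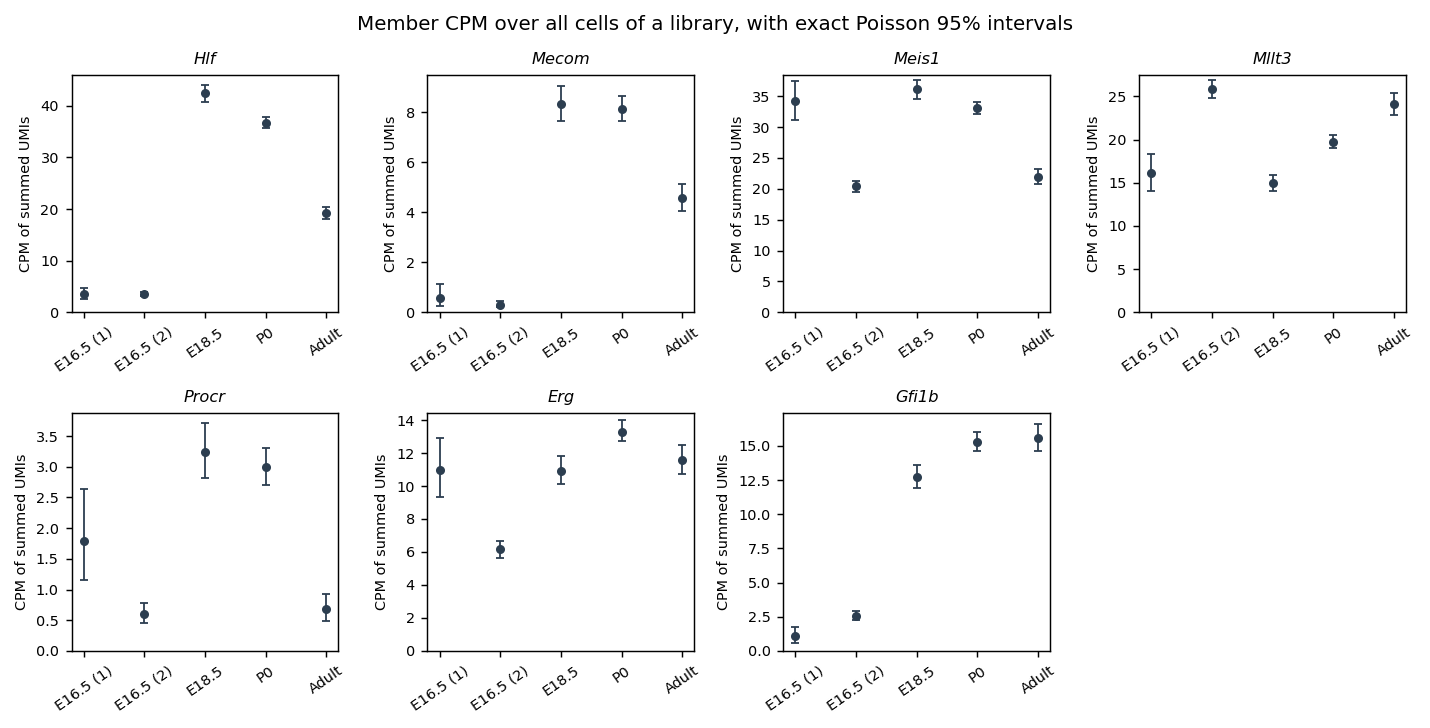
Level of each gene (vertical axis, CPM of the summed UMIs of all HP cells) in the 5 libraries (horizontal axis), with exact Poisson 95% intervals as bars. For Hlf, Mecom and Gfi1b both E16.5 libraries lie below the 3 later ones; for Meis1, Mllt3, Procr and Erg the E16.5 libraries differ from each other and the stages overlap.

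Each later stage was also set against E16.5 in 1 fit, whose spread comes from the 2 E16.5 libraries alone, with 1 residual degree of freedom, and each single library of a later stage is assumed to vary as they do. The 3 contrasts share the E16.5 libraries. At P0, Hlf alone was called by edgeR of the 7 genes (log2 difference 3.39 ± 0.45, adjusted p = 0.0468), where 0.292% of 16114 genes were called. In the adult Hlf was again the only one (2.64 ± 0.45, adjusted p = 0.0324), where 2.35% were called, 0.993% as lower. At E18.5 none of the 7 was called by edgeR, where 0.00621% of genes were, and Hlf had the smallest p of the 7 (3.51 ± 0.45, adjusted p = 0.0699). There 3 of the 7 had an unadjusted p below 0.05, as did 1047 of all genes tested. DESeq2, and edgeR with no filter on low counts, called Hlf, Mecom and Gfi1b. Hlf was also called with RLE size factors (adjusted p = 0.0497), without shared barcodes (0.0235) and, with Mecom and Gfi1b, without T cell and mast cell clusters (9.0e-05, 1.6e-04 and 0.0196). Mecom differed by 4.25, 4.31 and 3.66 at E18.5, P0 and in the adult (adjusted p = 0.121, 0.0792 and 0.0509), and Gfi1b by 2.65, 3.01 and 3.22 (adjusted p = 0.300, 0.155 and 0.0605). DESeq2 called both also at P0 and in the adult, as did edgeR with no filter on low counts and without T cell and mast cell clusters. Without shared barcodes edgeR called Mecom at P0 (adjusted p = 0.0351) and both in the adult (0.0256 and 0.0290). With RLE size factors edgeR called both in the adult (adjusted p = 0.0480 for Mecom and 0.0487 for Gfi1b). Of the 32 other regulators, Hoxa9 was the 1 called at P0 (3.50, adjusted p = 0.0499) and in the adult (2.67, adjusted p = 0.0368), and none was called at E18.5, with 11 of 32 at an unadjusted p below 0.05.

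Antibody counts give a grouping of cells that does not use the mRNA. A cell was called positive above 1 on the centered log-ratio scale, and positive and negative sums of the same 5 libraries were compared with the library as a block. Sca-1, the product of Ly6a, marks stem and multipotent cells in this strain, and also other cells. Sca-1 positive cells had more Hlf and Mecom. Hlf was at 8.80 CPM in positive against 2.09 in negative cells of E16.5 library 1 and at 3.75 against 3.40 in library 2. It was at 134 against 17.8 CPM at E18.5, 124 against 15.3 at P0 and 74.3 against 5.48 in the adult. Mecom was at 0.677 against 0.544 and 0.354 against 0.294 CPM at E16.5, then at 31.4 against 2.15, 32.3 against 2.16 and 17.5 against 1.33 CPM. Both were higher in positive cells in 5 of 5 libraries, with intervals that overlap in E16.5 library 2 for Hlf and in both E16.5 libraries for Mecom.

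The fitted log2 difference was 2.50 ± 0.47 for Hlf (5.65-fold, adjusted p = 0.0171) and 3.24 ± 0.48 for Mecom (9.42-fold, adjusted p = 0.00943). In this comparison 18.3% of 14208 genes were called, 7.96% as higher, against 2 of the 7. Procr (2.24, adjusted p = 0.0756), Erg (0.77, 0.0823), Meis1 (0.67, 0.262) and Mllt3 (0.24, 0.452) did not pass in edgeR, nor did Gfi1b (-0.87, 0.104). Over the fits without 1 library the Procr difference ran from 1.68 (without E18.5) to 2.85 (without E16.5 library 2). DESeq2 called Procr (1.92, adjusted p = 0.0304) and Erg (0.73, 0.0429). At centered log-ratios of 0.75 and 1.5 edgeR called Procr (0.0449 and 0.0177), and at 1.5 also Gfi1b (-1.18, 0.0130). Procr was called without E16.5 library 1 (0.0385), and Procr, Erg and Gfi1b without E16.5 library 2 (0.0247, 0.0248 and 0.00820). Both calls were lost without E18.5 (adjusted p = 0.0780 for Hlf and 0.0560 for Mecom), without P0 (0.0891 and 0.0679) and in the fit with no replicate block, which treats the paired sums as unrelated (0.670 for both). Of the other regulators 12 of 32 rose and 3 fell, among them Nkx2-3 (4.28, adjusted p = 0.00680), Hoxa9 (1.45, 0.0100), Hoxa7 (1.03, 0.00784), Mycn (1.87, 0.0119) and Gfi1 (-0.53, 0.0110).

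The Sca-1 difference itself was compared between the stages, by an interaction that was added after the data were seen. For Procr the log2 difference of positive minus negative cells was -0.84 at E16.5 and 3.42 later, a change of 4.26 ± 0.45 (adjusted p = 0.0387). The negative cells of E16.5 library 1 held 23 Procr UMIs and the positive cells 2, and 16 of these 25 came from the 3 Mast1 cells named above. Without that library the change was 3.80 (adjusted p = 0.0457). Procr was at 0.677 against 2.09 and 0.495 against 0.624 CPM in the E16.5 libraries, and at 11.8 against 0.958, 11.4 against 0.919 and 2.37 against 0.253 CPM later. For Mecom the change was 3.52 ± 0.36 (adjusted p = 0.0387), from 0.20 to 3.71. Thus 2 of the 7 were called where 0.141% of 14208 genes were. Meis1 was lower in positive cells of both E16.5 libraries (25.7 against 36.5 and 13.5 against 21.6 CPM) and higher in all later ones (64.1 against 28.6, 67.8 against 24.6 and 55.0 against 13.7 CPM), for a change of 2.10 (adjusted p = 0.0511). The change was 2.46 for Hlf (adjusted p = 0.103), 1.42 for Erg (0.0701), -1.74 for Gfi1b (0.133) and 0.21 for Mllt3 (0.855). All of the 7 but Mllt3 had an unadjusted p below 0.05, as did 2509 of all genes tested. Mecom and Procr lost the call without E16.5 library 2 (adjusted p = 0.226 and 0.176), without E18.5 (0.0835 and 0.0971) or without P0 (0.292 and 0.307). For CD150, CD48 and CD135 edgeR called none of the 7 by this interaction, where 0.0788%, 0% and 0.258% of genes were called, and 3, 2 and 6 of the 7 had an unadjusted p below 0.05, as did 1868 of 13959, 1083 of 14931 and 2097 of 13187 genes. DESeq2 was not run on the interaction.

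The clusters that held Sca-1 positive cells differed between E16.5 and later stages. The cluster with the largest share of them was Mono/Mast in E16.5 library 1 (53.4%), TCell1 in library 2 (23.7%), HSPC2 at E18.5 (39.7%) and P0 (26.0%), and HSPC5 in the adult (31.3%). The part of this makeup in the interaction was not tested.

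**Figure D4:**
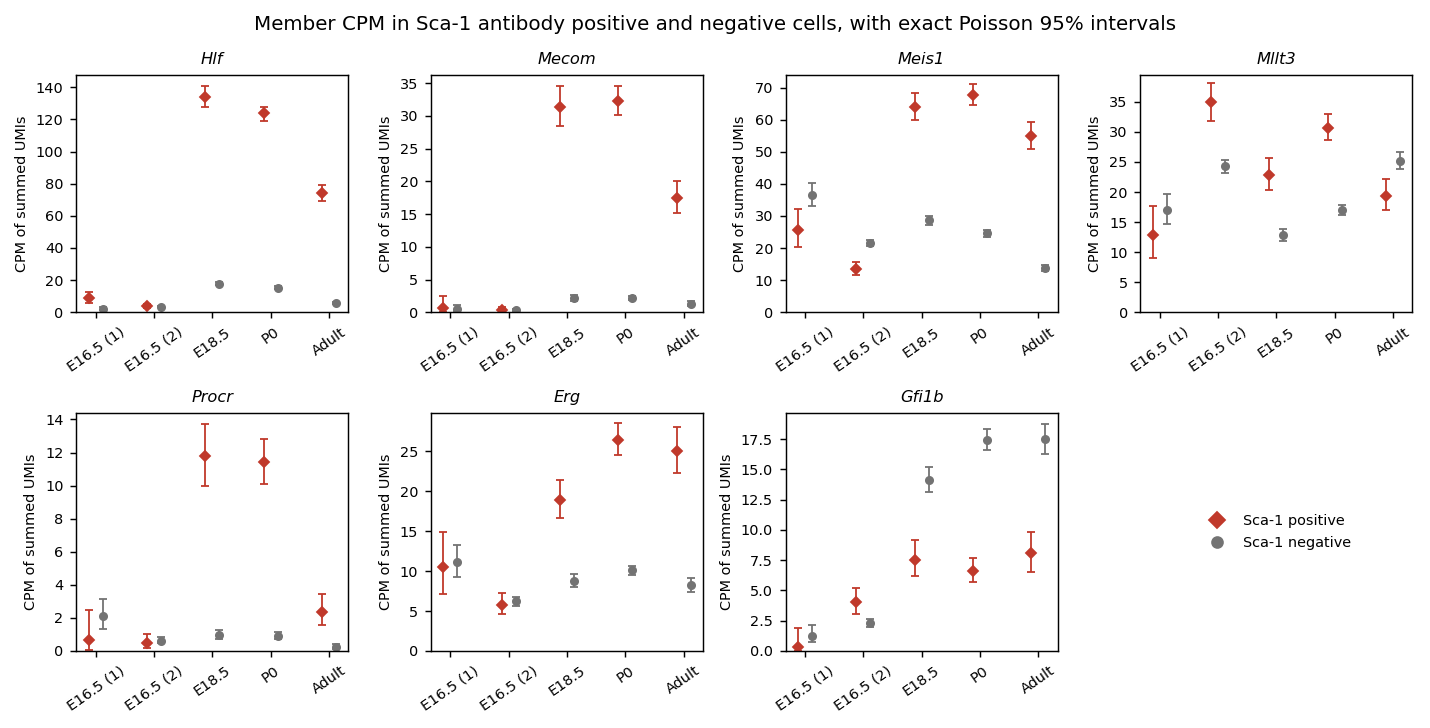
Level of each gene (vertical axis, CPM) in Sca-1 antibody positive (red diamonds) and negative (grey circles) cells of each library (horizontal axis), with exact Poisson 95% intervals as bars. From E18.5 on red lies above grey for Hlf, Mecom, Meis1, Procr and Erg, of which Hlf and Mecom passed the test over all libraries, while at E16.5 Meis1 is lower in positive cells (25.7 against 36.5 and 13.5 against 21.6 CPM).

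CD150, the SLAM family member on LT-HSCs and megakaryocyte progenitors, went with Mecom. Mecom was at 0.959 against 0.461 and 0.469 against 0.277 CPM at E16.5, 17.5 against 6.34 at E18.5, 13.8 against 6.81 at P0 and 7.47 against 4.03 in the adult, higher in 5 of 5 libraries. The intervals overlap in both E16.5 libraries, where positive cells held 3 and 6 Mecom UMIs. The log2 difference was 1.10 ± 0.15 (2.14-fold, adjusted p = 0.0232), the only call by edgeR among the 7, where 1.63% of 13959 genes were called, 0.430% as higher and 1.20% as lower. It was lost without E18.5 (adjusted p = 0.115), P0 (0.175) or the adult (0.0619) and with no replicate block (1.000). In edgeR Gfi1b (1.07, adjusted p = 0.0548) and Mllt3 (0.57, adjusted p = 0.102) did not pass. DESeq2 called both (adjusted p = 0.00398 and 0.0182), and edgeR called Gfi1b with no filter on low counts (0.0309) and, with Meis1, at a centered log-ratio of 1.5 (0.0201 and 0.0386). Gfi1b was called without either E16.5 library (0.0339 and 0.0349) and Mllt3 without library 1 (0.0417). Nkx2-3 was the only other regulator called (1.38, adjusted p = 0.0426).

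In the study's gates CD48 is absent from LT-HSCs and present on multipotent progenitors. For CD48 none of the 7 was called by edgeR or DESeq2 and none had an unadjusted p below 0.05, where 0.0469% of 14931 genes were called. Here the negative cells of E18.5 had a median of 589 UMIs and the positive ones 27344. None of the 31 other regulators tested was called by edgeR, and 9 had an unadjusted p below 0.05, as did 2170 of the 14931 genes. For CD135 (FLT3), which marks lymphoid-primed progenitors, edgeR also called none, where 0.311% of 13187 genes were called (0.190% as lower), and 3 of the 7 had an unadjusted p below 0.05, as did 3236 of all genes tested. These were Hlf (log2 difference 1.27, adjusted p = 0.0622), Mecom (1.21, 0.0762) and Gfi1b (-1.22, 0.0623), the same 3 that DESeq2 called. In edgeR these 3 were called without E16.5 library 1 (adjusted p = 0.0303, 0.0220 and 0.0354) or library 2 (0.00382, 0.0419 and 0.00481), where Meis1 was called too (0.0370). With no filter on low counts Hlf (0.0324) and Gfi1b (0.0308) were called, at a centered log-ratio of 0.75 Mecom (0.0454), and at 1.5 Hlf (0.0262), Gfi1b (0.0120) and Meis1 (0.0459). Hoxa9 (1.43, adjusted p = 0.0203) and Hoxa7 (1.23, 0.0495) were called among the other regulators.

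The gate for immunophenotypic (ph) LT-HSCs takes cells that are Sca-1 and CD150 positive and CD135 and CD48 negative. The cutoffs were set here, so these cells need not be the ones that the study called phLT-HSCs. It held 10 and 28 cells in the E16.5 libraries and 33 (E18.5), 114 (P0) and 134 (adult) in the others. None of the E16.5 gated cells was in a cluster coded HSPC, and 10 of 10 and 25 of 28 were in T cell or mast cell codes. Of the gated cells, 69.7% (E18.5), 65.8% (P0) and 21.6% (adult) were coded HSPC. Gated cells of the adult had a median of 3214 UMIs, against 11295 to 20958 in the other libraries.

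Gated cells of the later stages were rich in Mecom, Hlf, Procr and Mllt3. Mecom was at 178 CPM [147 to 214] in gated cells against 6.65 in all others at E18.5, at 99.6 [84.1 to 117] against 7.06 at P0 and at 34.7 [23.3 to 49.9] against 4.13 in the adult. In E16.5 library 1 it was at 10.9 CPM, from 2 UMIs, against 0.435, and in library 2 no UMI was found in the 28 cells, which allows up to 6.47 CPM. Hlf was at 293 against 39.9 CPM at E18.5, 207 against 34.7 at P0 and 113 against 17.9 in the adult, but at 0 (up to 20 CPM) against 3.55 and at 1.75 against 3.46 CPM in the E16.5 libraries. Every later library thus showed both genes higher in the gate and the E16.5 gates held 1 Hlf UMI in all.

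Procr had 55.1 CPM [38.4 to 76.6] in the gate against 2.73 outside at E18.5, 40.5 [30.9 to 52.3] against 2.56 at P0 and 4.79 [1.31 to 12.3] against 0.617 in the adult, with no UMI in either E16.5 gate. Mllt3 had 128 against 13.9, 104 against 18.8 and 39.5 against 23.8 CPM later and 10.9 against 16.2 and 40.3 against 25.8 CPM at E16.5. Meis1 had 162 against 34.8, 114 against 32.2 and 105 against 20.7 CPM later and was lower inside the gate at E16.5, at 16.3 against 34.4 and 10.5 against 20.4 CPM. Erg had 29.9 against 10.7, 24.0 against 13.2 and 19.2 against 11.5 CPM later. Hlf, Meis1 and Erg thus had higher values inside the gate in all 3 later libraries. Their values in the E16.5 gates were lower than outside but rest on 0 to 6 UMIs per gene, and where no UMI was found the limit lies above the level outside.

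Over the 5 libraries the fitted log2 differences were 3.72 ± 0.34 for Mecom (13.2-fold, adjusted p = 1.7e-04), 2.23 ± 0.33 for Hlf (4.70-fold, 0.00397), 3.23 ± 0.58 for Procr (9.38-fold, 0.0108) and 1.56 ± 0.39 for Mllt3 (2.95-fold, 0.0450). These 4 of 7 compare with 3.86% of 13102 genes called, 1.83% as higher and 2.03% as lower, and the median of the 7 was 1.56 against -0.04 over all genes. Meis1 (1.30, adjusted p = 0.0901), Erg (0.52, 0.443) and Gfi1b (-0.11, 0.899) did not pass. At a centered log-ratio of 1.5, which leaves out the E16.5 libraries, Meis1 (1.98, adjusted p = 2.6e-05) and Erg (1.04, 0.0218) did. Meis1 also passed without E16.5 library 1 (1.57, 0.0172) or library 2 (1.64, 0.0185). Mecom held its call when any library was left out. Hlf lost it without P0 (0.0680), Procr without E18.5 (0.126) or P0 (0.226), and Mllt3 without E18.5 (0.193), without P0 (0.303) and in DESeq2 (0.0548). With no replicate block all 4 were lost (0.477, 0.658, 0.405 and 0.490). Without shared barcodes all 4 were kept, with adjusted p = 1.4e-04 for Mecom and 0.0401 for Mllt3.

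For Meis1 the gate difference changed between the stages, from -1.13 at E16.5 to 1.98 later, by 3.11 ± 0.42 on the log2 scale (adjusted p = 0.0259), where 0.153% of 13102 genes were called by this interaction, added after the data were seen. This call was kept when any library was left out. At E16.5 it rests on 3 and 6 Meis1 UMIs, whose intervals include the level outside the gate in both libraries. Of the E16.5 gated cells, 10 of 10 and 25 of 28 were in T cell or mast cell codes. The part of this makeup in the change was not tested. The change was 4.06 for Hlf (adjusted p = 0.0734) and 0.98 for Mecom (0.898). With no UMI in either E16.5 gate, Procr changed by 11.85 (adjusted p = 0.336). Erg changed by 2.50 (adjusted p = 0.507), Mllt3 by 1.77 (0.556) and Gfi1b by 0.74 (0.948). Among the genes not called, Hlf, Procr, Erg and Mllt3 had an unadjusted p below 0.05, as did 1008 of the 13102 genes. Of the 32 other regulators 12 rose in the gate and none fell, among them Nkx2-3 (3.84, adjusted p = 6.3e-04), Tcf15 (3.87, 0.00397), Esam (3.68, 0.00397) and Hoxa10 (2.56, 0.00825).

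**Figure D5:**
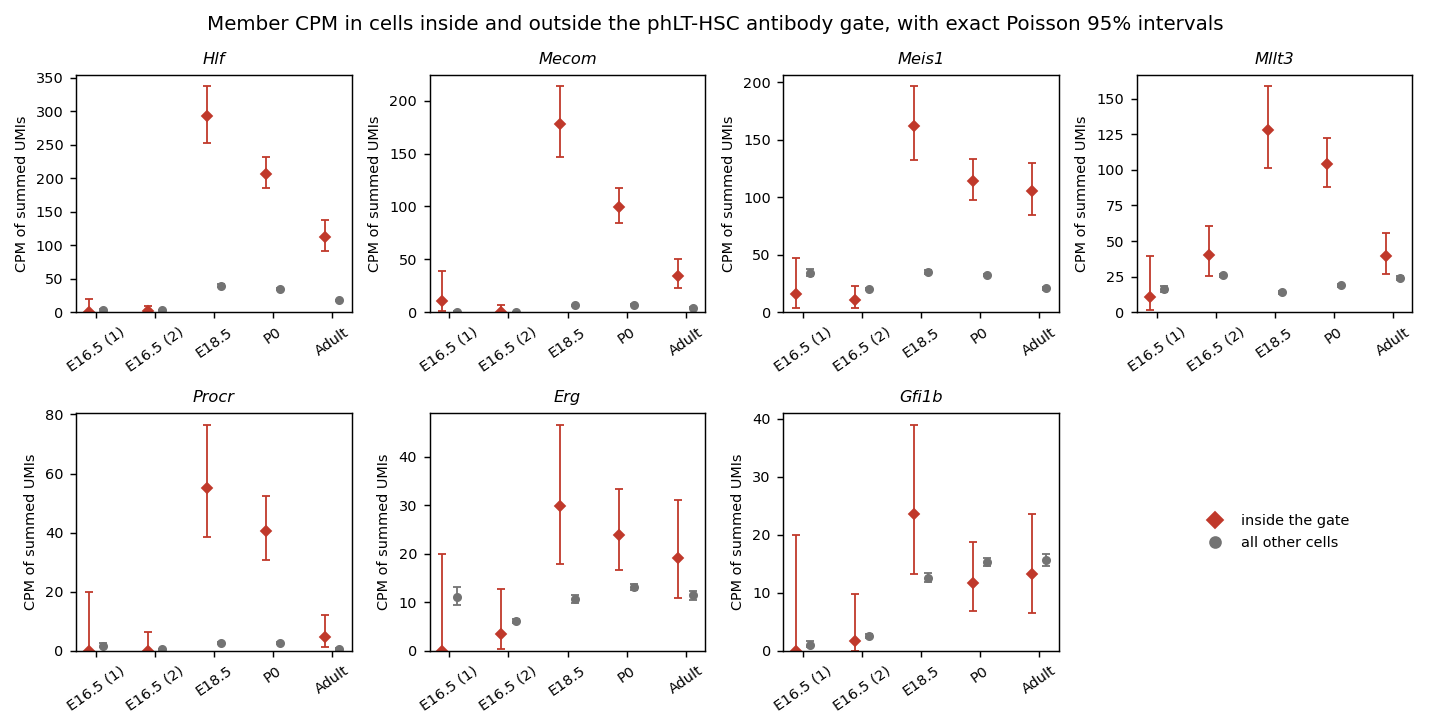
Level of each gene (vertical axis, CPM) in cells inside the phLT-HSC antibody gate (red diamonds) and in all other cells (grey circles) of each library (horizontal axis), with exact Poisson 95% intervals as bars. From E18.5 on the gated cells lie above the others for Hlf, Mecom, Meis1, Mllt3 and Procr, with the highest levels at E18.5 (293 CPM for Hlf, 178 for Mecom), and the E16.5 gates hold 0 to 6 UMIs of each gene other than Mllt3, with intervals to match.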

How the data were processed

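The authors deposited raw UMI counts per gene and cell and raw antibody counts for 29 antibodies, made per the labels with the Chromium 3′ v3.1 chemistry and, in the submitters' processing notes, Cell Ranger 3.1.0, mm10 and Seurat 3.1.5. A deposited table gives each cell's library and cluster code. Against doublets the authors had removed the cells with the most genes or UMIs in each sample, and no doublet caller was run here. Every used column belonged to a sample of this series, with 0 columns of other samples. An antibody to CD201 was not analysed here. Counts were summed per library, cluster or antibody status and tested with edgeR 4.0.16 in R 4.3.3 (TMM, filterByExpr, quasi-likelihood F test, Benjamini-Hochberg over all genes tested, threshold 0.05), with DESeq2 1.42.0 as an alternative. Later stages against E16.5 had 3 residual degrees of freedom. Antibody comparisons had 10 sums and 4 residual degrees of freedom. Library was a block because both sums of a library come from cells that were sorted and sequenced together. For each antibody, counts were put on a centered log-ratio scale within each library, with values above 1 taken as positive. On simulated data the test of later stages found 95.0% of 8-fold and 100.0% of 64-fold changes, with 6 false calls each time. That of P0 alone found 62.5% and 100.0%, with 7 and 10 false calls. Thinning used a seed of 1. Shares carry exact Clopper-Pearson 95% intervals. The 7 genes were named in every comparison, other regulators were named up to 5 per comparison by smallest p among those called, and 3 similar genes per member by correlation. 1 gene that these rules name is not reported here. The genes and lists were chosen with earlier results of these data known. Leaving out shared barcodes and the interaction with stage were added after the data were seen. Python 3.11.15 was used for the other steps. Promoter windows and gene positions came from RefSeq and GENCODE on GRCm38.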

Additional observations from a re-analysis of the deposited data

Results flagged for a closer look

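The Sca-1 difference of Mecom changed between E16.5 and later stages by 3.52 on the log2 scale and that of Procr by 4.26, each by a test of the difference itself. Both calls were lost without E16.5 library 2 (adjusted p = 0.226 for Mecom and 0.176 for Procr), without E18.5 (0.0835 and 0.0971) or without P0 (0.292 and 0.307), and 16 of the 25 Procr UMIs of E16.5 library 1 came from 3 cells. In the phLT-HSC gate the difference of Meis1 changed by 3.11, with only 3 and 6 Meis1 UMIs in the E16.5 gates. The per-library levels behind these values are in the results above, and the clusters that held Sca-1 positive and gated cells differed between the stages too.

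The sort of CD45-Ter119- stromal BM cells, outside the comparisons above, also held UMIs of all 7 genes. Hlf reached 8.29 CPM in the P0 library. Mecom reached 26.5 CPM at P0, with 204 CPM in the cluster coded ECs at E18.5 and 179 CPM in AECs of the adult, both endothelial codes. Procr reached 38.8 CPM in the adult library, against 4.36 at E16.5, with 423 CPM in the adult cluster F13. Meis1 reached 28.7 CPM and Mllt3 13.9 CPM at E18.5, and Erg 10.5 CPM at P0. Gfi1b reached 0.272 CPM in the adult and was at or below the level of 3 UMIs in the other stromal libraries.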

How the results depend on the processing

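Counts were low at E16.5 for Procr and Mecom, with 58 and 29 UMIs in E16.5 library 2, and the gated E16.5 cells, 10 and 28, held 0 to 6 UMIs of each gene but Mllt3. Genes called for later stages against E16.5 numbered 210 and became 320 with no filter on low counts, 2027 in DESeq2, 130 without cells under 1000 UMIs, 79 without T cell and mast cell clusters, 138 without shared barcodes and 0 to 100 without 1 library. For E18.5 alone the 1 gene became 35 with RLE size factors, 485 with no filter, 346 in DESeq2, 285 without T cell and mast cell clusters and 66 without shared barcodes. For P0 the 47 became 78, 713, 554, 806 and 141 in the same order, and for the adult the 378 became 1515 with no filter, 1144 in DESeq2 and 1415 without T cell and mast cell clusters. Positive and negative sums are paired by library, and with no replicate block the genes called fell to 0 for Sca-1, CD150, CD48 and CD135 and to 1 for the gate. For Sca-1 the 2596 became 1213 at a centered log-ratio of 0.75 and 173 to 3672 without 1 library. For CD150 the 228 became 404 with no filter, 839 in DESeq2, 120 at 0.75, 642 at 1.5 and 33 to 560 without 1 library. For CD48 the 7 became 32, 438, 4 without shared barcodes, 13 at 1.5 and 0 to 11. For CD135 the 41 became 469, 1044, 196 at 0.75, 1247 at 1.5 and 0 to 1141. For the gate the 506 became 881 with no filter, 1232 at 1.5, where both E16.5 libraries had too few gated cells and 3 libraries remained, and 90 to 944. Cells with 3 or more of the genes, 1.01%, 0.571% and 0.800% in P0 HSPC2, P0 HSPC3 and adult HSPC5 at 1000 UMIs, were 4.63%, 1.85% and 3.30% at 2000 UMIs, and without thinning 50.1%, 51.1% and 19.2%, with 11.5% in HSPC1, 55.2% in E18.5 HSPC2 and 50.9% in HSPC4. No call of the 7 genes reversed. Among uncalled log2 differences, without T cell and mast cell clusters Mllt3 became 0.58 for later stages and 0.57 for P0, and Meis1 0.22 for the adult. For CD48, Gfi1b became 0.34 in DESeq2 and Hlf -0.17 at 0.75, and Gfi1b in the gate 0.30 at 0.75 and 0.13 with no replicate block. Without 1 library, the later stages gave -0.17 to 0.53 for Meis1 and -0.40 to 0.33 for Mllt3, E18.5 -0.01 to 0.68 for Meis1 and -0.10 to 0.68 for Erg, P0 -0.06 to 0.64 for Meis1 and -0.44 to 0.28 for Mllt3, and the adult -0.48 to 0.23 for Meis1 and -1.24 to 0.28 for Procr. Likewise CD150 gave -0.07 to 0.65 for Procr, CD48 -0.14 to 0.18 for Hlf, -0.13 to 0.48 for Meis1 and -0.54 to 0.56 for Gfi1b, and the gate -0.50 to 0.09 for Gfi1b. The causes were not tested. Another scaling moved the median of all genes by at most 0.09 on the log2 scale.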
